A study of Arabidopsis thaliana with 18 samples.

Results

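A set of 10 genes that act in mitosis and cytokinesis was followed through the Arabidopsis tcx2 root data. They were taken by AGI identifier: KNOLLE (AT1G08560), HINKEL (AT1G18370), PLEIADE (AT5G51600), EDE1 (AT2G44190), AUR1 (AT4G32830), AUR2 (AT2G25880), AUR3 (AT2G45490), CDC20.1 (AT4G33270), CDC20.2 (AT4G33260) and MAD2 (AT3G25980). All 10 of 10 were found among the 33560 genes of the sorted-cell table and among the 33201 entries of the root tip table, and none of them sat in an entry that merged several gene names.

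The series compared plants with reduced or no TCX2 function with wild type. TCX2, also called SOL2, is a CXC-domain protein related to LIN54, the DNA-binding part of the animal DREAM complex. The 18 libraries formed 6 groups of 3. Root tips of 5-day-old seedlings made up 2 groups, wild type (WT, Col-0) and from tcx2 plants (the tcx2-3 knockout according to the methods). The remaining 4, also from 5-day-old seedlings, held cells that fluoresced green in the sorter. These cells came from tcx2 roots, each with 1 reporter crossed in, that had been digested to protoplasts. CYCD6:GFP marks cortex endodermis initials, FEZ:FEZ-GFP marks epidermis and lateral root cap initials and carries FEZ coding sequence, TMO5:3xGFP marks xylem initials and WOX5:GFP marks the quiescent center (QC). Every sorted library thus carried a tcx2 allele, either the knockdown tcx2-2 or the knockout tcx2-3, and which one each population carried is not given in the sources used here. No sorted WT cells were analysed here, so the sorted populations could be compared with each other but not with WT. The methods call the 3 sorted libraries of each reporter biological replicates. Nothing in the labels says that replicates came from separate plantings. The p-values thus measure the spread between these libraries, which may be partly technical.

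Plant cells divide by building a new wall from the inside outwards. After the spindle has separated the chromosomes, the phragmoplast, an array of microtubules, brings vesicles to the division plane, where they fuse into the cell plate. KNOLLE is the cytokinesis-specific syntaxin that fuses these vesicles. HINKEL is a kinesin that switches on the mitogen-activated protein kinase cascade by which the phragmoplast expands. PLEIADE, also called MAP65-3, bundles microtubules in the phragmoplast midzone, and EDE1 is a microtubule-binding protein of mitotic arrays. AUR1 and AUR2 are the alpha Aurora kinases of spindle and cell plate, and AUR3 is the beta Aurora kinase of centromeres. CDC20.1 and CDC20.2 activate the anaphase-promoting complex (APC/C), the ubiquitin ligase that starts anaphase, and MAD2 is the spindle checkpoint protein that holds CDC20 back. Many plant genes used in G2 and M phase carry mitosis-specific activator (MSA) elements with the core AACGG, which MYB3R factors bind.

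Stretches before the gene start that hold this core are shown because they are a sequence feature that the choice of the genes did not use. For each of 6 genes the match nearest the start is shown. Each is 40 bases of TAIR10.1, printed 5′ to 3′ on the strand of the gene, with AACGG or its reverse complement CCGTT in capitals.
KNOLLE, chr1:2711001-2711040, minus strand: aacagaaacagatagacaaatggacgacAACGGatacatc
HINKEL, chr1:6324379-6324418, minus strand: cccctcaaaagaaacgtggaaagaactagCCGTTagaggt
PLEIADE, chr5:20964612-20964651, minus strand: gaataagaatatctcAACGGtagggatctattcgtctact
AUR1, chr4:15842349-15842388, plus strand: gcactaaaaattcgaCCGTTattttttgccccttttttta
AUR2, chr2:11038192-11038231, minus strand: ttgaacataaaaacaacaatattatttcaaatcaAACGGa
MAD2, chr3:9503016-9503055, plus strand: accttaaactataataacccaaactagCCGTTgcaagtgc

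In the 300 bases before the RefSeq gene start, AACGG or CCGTT occurred in 7 of the 10 genes, against 23.4% of 27443 Arabidopsis promoters of the same length. HINKEL and PLEIADE held at least 2 copies, as did 4.53% of all promoters, and their farther copies, at -294 and -125, are not printed. The match of CDC20.1 lay at position -278 from its start, inside a window that overlaps the neighbouring gene AT4G33280, and is not printed. EDE1, AUR3 and CDC20.2 had no match in this window. The core of the animal CHR element, TTTGAA or TTCAAA, occurred in 6 of the 10 genes, against 44.7% of all promoters. A match of so few letters is a description of the sequence and not a binding site. For AUR2 the RefSeq start lies at 11038191, upstream of the end of the gene in the deposited root tip table at 11036910, so its window belongs to the longer gene model.

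CDC20.1 and CDC20.2 are neighbours on chromosome 4 and nearly the same gene, which bears on their values. Their coding sequences, 1374 and 1344 bases long, were 95.3% identical, and 32.3% of the 100-base windows of CDC20.1 also occurred without a mismatch in CDC20.2. The longest shared stretch was 314 bases, from coding position 709 in CDC20.1 and 679 in CDC20.2. The first 100 bases of it, the length of 1 read, are shown because a read from here matches both genes.
Shared by CDC20.1 and CDC20.2: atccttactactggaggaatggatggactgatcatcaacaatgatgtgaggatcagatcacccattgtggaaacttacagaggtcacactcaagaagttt
The split of reads between them was set by the counting and is uncertain. AUR1 and AUR2 were 82.5% identical, with no shared window of 100 bases and a longest shared run of 32, and AUR3 was 62.6% identical to each of them. Genes on the opposite strand overlap KNOLLE by 464 bases, AUR1 by 290, AUR2 by 877, AUR3 by 126 and MAD2 by 4 in RefSeq. Whether strand was used in counting is not given in the sources used here. The opposite-strand neighbour of KNOLLE, AT1G08550, had at most 0.826 FPKM in any sorted library, and that of AUR2, AT2G25890, was listed at 0 in all 12.

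The sorted table held ribosomal RNA at 78.1% to 85.9% of the summed values of each library, leaving 14878 to 22170 genes above 0. Values are in FPKM, fragments scaled by transcript length and by mapped fragments of the library, which can be compared between genes because they are per length. Read depth is unknown. A value of exactly 0 may be a failed estimate and is written as listed at 0.

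The genes behind the reporters did not all follow their labels, so populations are named by label, and each value below is that of the libraries so labelled. WOX5 was listed at 0 in all 3 libraries labelled WOX5:GFP and stood at 1.49, 0.997 and 0 FPKM in those labelled TMO5:3xGFP. TMO5 stood at 3.75, 0.391 and 0.782 FPKM in the libraries labelled WOX5:GFP and at 0, 0.206 and 0 in those labelled TMO5:3xGFP. Each of these genes was thus higher under the label of the other. If these labels were exchanged, every value and order given for one of the populations would belong to the other, which was not tested, and the comparison of FEZ:FEZ-GFP with CYCD6:GFP uses only the spread of these libraries, not their levels. The 3 libraries labelled FEZ:FEZ-GFP had FEZ at 2.90, 0.949 and 0.347 FPKM. Those labelled TMO5:3xGFP had it at 0.702, 0.917 and 0.408 FPKM, so FEZ did not set these groups apart. It was at most 0.0733 FPKM in CYCD6:GFP and WOX5:GFP. No CYCD6:GFP library had CYCD6;1 above 0. The summed level of 3 root cap markers (SMB, BRN1, BRN2) was highest in TMO5:3xGFP at 5.48 to 11.2 FPKM and in FEZ:FEZ-GFP at 2.18 to 8.17. It was 0 to 1.42 FPKM for CYCD6:GFP and 0 to 0.216 for WOX5:GFP. That of 3 markers of differentiated xylem (VND7, XCP1, XCP2) was 2.05 to 14.1 FPKM in WOX5:GFP and at most 1.81 elsewhere. For 3 root hair markers (COBL9, EXPA7, EXPA18) the sum was 2.81 to 17.8 FPKM, and each was above 0 in all 12 libraries. Every population thus held RNA of root hair genes. For 3 markers of differentiated endodermis (CASP1, CASP2, MYB36) the sum was at most 1.91 FPKM. TCX2 itself (AT4G14770) stood at 0 to 0.722 FPKM over the sorted libraries. In root tips its level was 1.29 FPKM in WT and 0.303 in tcx2, with separate intervals.

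In sorted tcx2 cells the 10 genes were low, and their values were mostly highest in the FEZ:FEZ-GFP population and lowest in CYCD6:GFP. For 7 of the 10 the highest of the 12 values came from a FEZ:FEZ-GFP library. The exceptions were MAD2 and EDE1, whose highest values came from WOX5:GFP libraries, and AUR3, whose highest value came from CYCD6:GFP. No difference of any of the 10 genes between populations passed the test.

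Of the 120 values, 80 were above 0 and 23 reached 1 FPKM. CYCD6:GFP replicates 1, 2 and 3 held 6, 5 and 1 of the genes above 0, and FEZ:FEZ-GFP held 9, 10 and 8. TMO5:3xGFP held 7, 9 and 4, and WOX5:GFP held 8, 6 and 7. All genes above 0 numbered 14878 to 17712 in CYCD6:GFP, 15831 to 16638 in WOX5:GFP, 16604 to 18043 in FEZ:FEZ-GFP and 18981 to 22170 in TMO5:3xGFP. Within CYCD6:GFP they numbered 17712, 15575 and 14878, in the order of its counts of the 10 genes, and the part of detection in these counts was not tested. The sum of the 10 levels was 27.8, 26.2 and 8.49 FPKM in FEZ:FEZ-GFP and 3.40, 1.68 and 1.14 in CYCD6:GFP, so these groups did not overlap. It was 2.46, 10.2 and 2.21 FPKM in TMO5:3xGFP and 18.5, 3.41 and 2.28 in WOX5:GFP, where 1 library each stood above its replicates. KNOLLE and HINKEL had 14.9 and 6.17 FPKM in FEZ:FEZ-GFP replicate 1 and 12 and 3.50 in FEZ:FEZ-GFP replicate 2. The sums of these libraries thus rested mostly on KNOLLE and HINKEL.

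**Figure D1:**
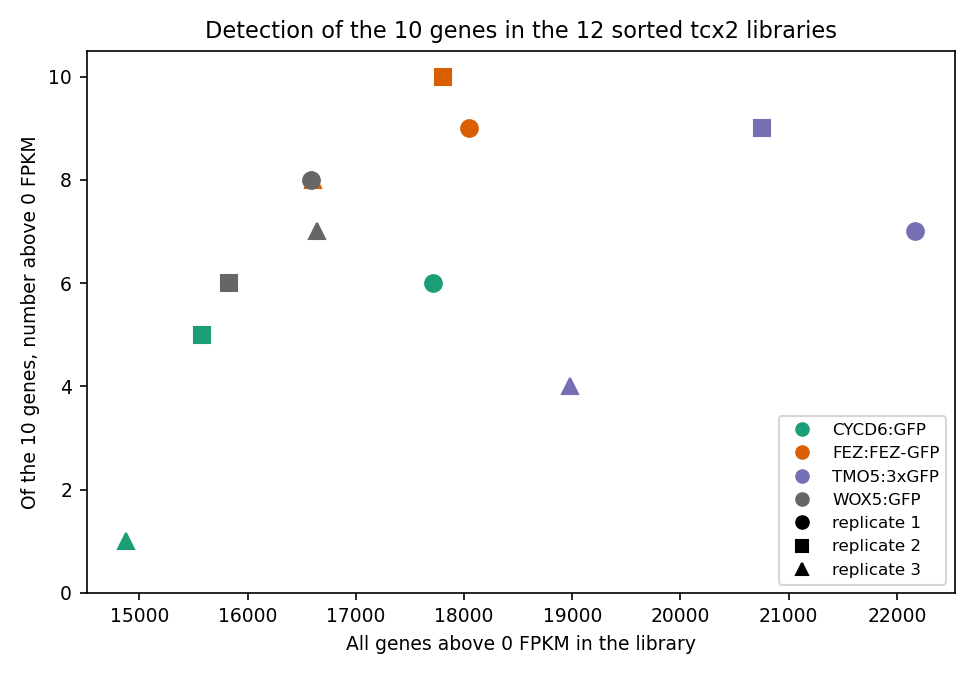
Number of the 10 genes above 0 FPKM (vertical axis) against the number of all genes above 0 FPKM (horizontal axis) in each of the 12 sorted tcx2 libraries, coloured by population and shaped by replicate. The 3 FEZ:FEZ-GFP libraries hold 8 to 10 of the genes and the CYCD6:GFP libraries 1 to 6, and FEZ:FEZ-GFP replicate 3 is nearly hidden by WOX5:GFP replicate 1 at 8 genes.

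The genes of cell plate formation come first. KNOLLE (TAIR10, chromosome 1, 2709632 to 2710912) was the highest of the 10. Its level was 14.9, 12 and 3.31 FPKM in FEZ:FEZ-GFP, 6, 1.80 and 0.333 in WOX5:GFP, 0.514, 4.72 and 0.750 in TMO5:3xGFP, and 1.78, 0 and 0 in CYCD6:GFP. All 3 FEZ:FEZ-GFP values lay above all CYCD6:GFP values, and the lowest of them lay below the highest of WOX5:GFP and of TMO5:3xGFP. On log2(FPKM + 1), FEZ:FEZ-GFP exceeded the mean of the other 3 populations by 2.14 (SE 0.53), with a limma p of 0.000555 that became 0.0957 after Benjamini-Hochberg adjustment over 9979 genes. That limma adjusted p rose to 0.557 without FEZ:FEZ-GFP replicate 1, 0.525 without FEZ:FEZ-GFP replicate 2 and 0.523 with no filter on level. The population order was FEZ:FEZ-GFP, WOX5:GFP, TMO5:3xGFP, CYCD6:GFP, and no neighbours in it differed by the test. The first step, FEZ:FEZ-GFP over WOX5:GFP, was 1.70 (SE 0.64, limma adjusted p = 0.317). From end to end, CYCD6:GFP differed from FEZ:FEZ-GFP by -2.77 (SE 0.64, limma adjusted p = 0.0536), which missed the threshold of 0.05 narrowly. That difference passed when any one of CYCD6:GFP replicate 1, FEZ:FEZ-GFP replicate 3, TMO5:3xGFP replicate 2, WOX5:GFP replicate 1 or WOX5:GFP replicate 3 was left out (limma adjusted p 0.0320 to 0.0428). It did not pass when any other library was left out, with no filter, with either other pseudocount, after median centring or after rescaling to nuclear genes. It passed in a fit of the 6 CYCD6:GFP and FEZ:FEZ-GFP libraries alone (limma adjusted p = 0.0447), added after the reporter values were seen. That fit took genes of at least 1 FPKM in at least 3 of its 6 libraries. KNOLLE was the only gene of the set to enter it, mainly through its FEZ:FEZ-GFP values, so it adds no separate support.

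HINKEL (chromosome 1, 6319650 to 6324222) followed KNOLLE across the libraries. Its level was 6.17, 3.50 and 0.845 FPKM in FEZ:FEZ-GFP, 4.98, 0.374 and 0.672 in WOX5:GFP, 0.632, 0.883 and 1.13 in TMO5:3xGFP, and 0.553, 0.391 and 0 in CYCD6:GFP. The high libraries were FEZ:FEZ-GFP replicates 1 and 2 and WOX5:GFP replicate 1. All CYCD6:GFP values lay below all of FEZ:FEZ-GFP and all of TMO5:3xGFP. Of the 9979 genes tested with limma, 926 lay so against FEZ:FEZ-GFP and 1499 against TMO5:3xGFP. FEZ:FEZ-GFP exceeded the other 3 populations by 1.12 on log2(FPKM + 1) (SE 0.43, limma adjusted p = 0.500). PLEIADE (chromosome 5, 20960911 to 20964484) stayed below 0.5 FPKM everywhere, at 0.404, 0.206 and 0.359 in FEZ:FEZ-GFP, 0.0619, 0.364 and 0.0809 in TMO5:3xGFP and 0.225, 0 and 0.0482 in WOX5:GFP. No CYCD6:GFP library had it above 0. EDE1 (chromosome 2, 18272191 to 18274497) did not lean to FEZ:FEZ-GFP. Its values ran from 0 to 0.337 FPKM and overlapped between all populations.

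Of the Aurora kinases, AUR2 (chromosome 2, 11034652 to 11036910) split the libraries most sharply. It was listed at 0 in all 6 CYCD6:GFP and WOX5:GFP libraries and had 0.634, 1.43 and 2.06 FPKM in FEZ:FEZ-GFP and 0.888, 1.27 and 0 in TMO5:3xGFP. FEZ:FEZ-GFP thus lay wholly above both of the empty populations. Of the 9979 genes tested with limma, 926 lay so over CYCD6:GFP and 760 over WOX5:GFP. For AUR2 the difference of FEZ:FEZ-GFP from the other 3 was 0.97 on log2(FPKM + 1) (SE 0.30, limma adjusted p = 0.292). AUR1 (chromosome 4, 15842453 to 15844536) was also listed at 0 in all 3 CYCD6:GFP libraries. Its values were 0.716, 0.190 and 1.27 FPKM in FEZ:FEZ-GFP, 0, 0.662 and 0 in TMO5:3xGFP and 0.0922, 0.398 and 0.116 in WOX5:GFP, so FEZ:FEZ-GFP overlapped both of the latter.

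AUR3 (chromosome 2, 18747639 to 18749075) was arranged the other way round. Its level was 0.262, 0.341 and 1.14 FPKM in CYCD6:GFP and 0.193, 0.217 and 0.650 in WOX5:GFP, against 0, 0.170 and 0 in FEZ:FEZ-GFP and 0, 0.257 and 0 in TMO5:3xGFP. All CYCD6:GFP values lay above all FEZ:FEZ-GFP and TMO5:3xGFP values, and all WOX5:GFP values lay above all FEZ:FEZ-GFP values. AUR3 was too low for limma. Of the 9979 genes tested there, CYCD6:GFP lay above FEZ:FEZ-GFP for 420 and above TMO5:3xGFP for 695. For 848 of them WOX5:GFP lay above FEZ:FEZ-GFP. In an exact two-sided permutation test over the 220 choices of 3 from 12 libraries, CYCD6:GFP exceeded the other 9 libraries by 0.42 on log2(FPKM + 1) (exact p = 0.0318), which did not stand after adjustment over 28571 genes (adjusted p = 1).

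The checkpoint and APC/C genes come last. The MAD2 level was 2.20, 4.63 and 0.220 FPKM in FEZ:FEZ-GFP, 5.88, 0 and 0 in WOX5:GFP, 0.182, 0.887 and 0.242 in TMO5:3xGFP and 0.196, 0 and 0 in CYCD6:GFP. A single WOX5:GFP library thus held its highest value while both replicates of that library were listed at 0. FEZ:FEZ-GFP exceeded the other 3 by 0.99 on log2(FPKM + 1) (SE 0.49, limma adjusted p = 0.717). In the root tip table the span of MAD2 (chromosome 3, 9503056 to 9509258) runs past its RefSeq end at 9504680, over AT3G25990 and AT3G26000.

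CDC20.2 (chromosome 4, 16041067 to 16043457) had 1.12, 2.49 and 0.141 FPKM in FEZ:FEZ-GFP, was listed at 0 in all 3 TMO5:3xGFP libraries, and was above 0 in only 1 library each of CYCD6:GFP (0.404) and WOX5:GFP (0.237). CDC20.1 (chromosome 4, 16044352 to 16046792) had 1.56, 1.56 and 0 FPKM in FEZ:FEZ-GFP, 0.797, 0.280 and 0.220 in WOX5:GFP, 0.107, 0.859 and 0 in TMO5:3xGFP and 0.357, 0.454 and 0 in CYCD6:GFP. Its FEZ:FEZ-GFP values therefore spanned the whole range of the other populations.

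**Figure D2:**
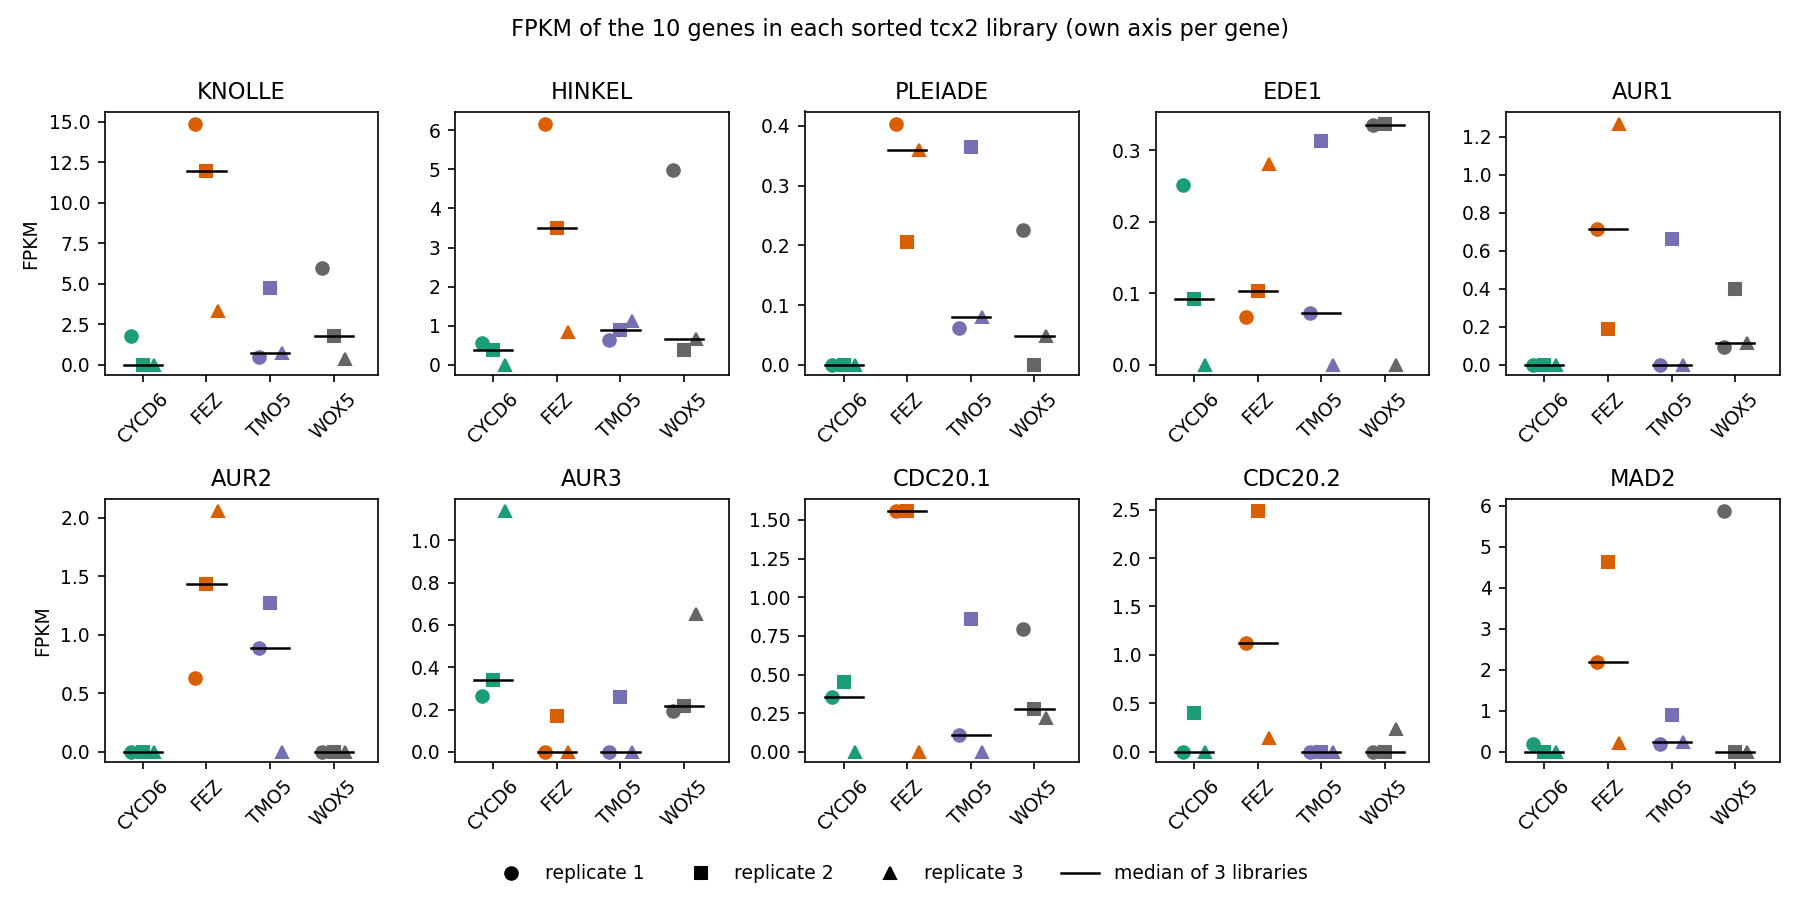
FPKM (vertical axis, separate for each gene) of the 10 genes in the 12 sorted tcx2 libraries, by population (horizontal axis), with a symbol per replicate and a bar at the median of 3. KNOLLE reaches 14.9 in FEZ:FEZ-GFP, AUR2 is listed at 0 in every CYCD6:GFP and WOX5:GFP library, and AUR3 is highest in CYCD6:GFP.

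Across populations, 4 of the 10 genes reached 1 FPKM in at least 3 libraries and entered the limma fit: KNOLLE, HINKEL, AUR2 and MAD2. None was called in the overall F-test, which called 4.28% of all tested genes at an adjusted p under 0.05, and KNOLLE came nearest (limma adjusted p = 0.0582). KNOLLE was called in it when WOX5:GFP replicate 1 or 3, FEZ:FEZ-GFP replicate 3 or CYCD6:GFP replicate 1 was left out (limma adjusted p 0.027 to 0.0459). Its limma adjusted p there rose to 0.192 without FEZ:FEZ-GFP replicate 1, 0.186 without FEZ:FEZ-GFP replicate 2 and 0.32 with no filter. All 4 genes were called with array weights, a setting that called 3985 of the 9979 genes. None was called against the mean of the other 3 populations, at an adjusted p under 0.05 and a fold change over 2. That call took 5.52% of all tested genes for TMO5:3xGFP, 0.802% for WOX5:GFP, 0.241% for FEZ:FEZ-GFP and 0.200% for CYCD6:GFP. None was called between any pair of populations. The shares of all tested genes called there were 0.541% for CYCD6:GFP and FEZ:FEZ-GFP, 4.11% for CYCD6:GFP and TMO5:3xGFP, 0.150% for CYCD6:GFP and WOX5:GFP, 0.631% for FEZ:FEZ-GFP and TMO5:3xGFP, 0.832% for FEZ:FEZ-GFP and WOX5:GFP and 5.68% for TMO5:3xGFP and WOX5:GFP. At an unadjusted limma p under 0.05, KNOLLE, HINKEL and AUR2 differed between FEZ:FEZ-GFP and the other 3, as did 7.27% of all tested genes. All 4 genes did so between FEZ:FEZ-GFP and CYCD6:GFP, as did 9.11% of all tested genes. AUR2 and MAD2 no longer passed the filter without FEZ:FEZ-GFP replicate 2, so their place among the 4 rested on the population where they were high. HINKEL reached 1 FPKM in 4 libraries, FEZ:FEZ-GFP replicates 1 and 2 among them, so it too passed only with its FEZ:FEZ-GFP values. The unadjusted differences of HINKEL, AUR2 and MAD2 in FEZ:FEZ-GFP thus add no separate support.

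The exact permutation test took in all 10 genes, whatever their level. For FEZ:FEZ-GFP against the other 9 libraries, 8 of the 10 had a positive difference, as did 41.6% of all genes, and the median over the 10 was 0.75 on log2(FPKM + 1), against -0.03 over all 28571 genes above 0 in at least 1 library. An unadjusted exact p under 0.05 was reached by 5 of the 10, against 3.60% of all genes. These were KNOLLE (exact p = 0.0136), CDC20.2 (exact p = 0.0136), AUR1 (exact p = 0.0182), AUR2 (exact p = 0.0182) and PLEIADE (exact p = 0.0227). None of them, and no gene of the table, had an adjusted p under 0.05, and the smallest p that 220 choices allow is 0.00455. For CYCD6:GFP, 9 of the 10 had a negative difference with a median of -0.33, against -0.06 over all genes, of which 34.2% were positive. There AUR3 was the one gene with an unadjusted exact p under 0.05, against 3.62% of all genes.

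Compared pair by pair, all 3 CYCD6:GFP values lay below all 3 FEZ:FEZ-GFP values for KNOLLE, HINKEL, PLEIADE, AUR1, AUR2 and MAD2, thus for 6 of the 10, against 5.75% of all genes. They lay above for AUR3, 1 of the 10, against 2.41% of all genes. Of the 9979 genes above the filter, which include 4 of the 10, CYCD6:GFP lay below FEZ:FEZ-GFP for 926 and above for 420. Both are larger shares than those of all genes. The root cap sum moved along with this difference (summed levels above). Of its markers, SMB alone kept CYCD6:GFP, where every library was listed at 0, apart from FEZ:FEZ-GFP, whose range was 1.91 to 7.24 FPKM. BRN1 overlapped, with CYCD6:GFP values of 1.42, 0 and 0 FPKM against 0.456, 2.74 and 0.267 for FEZ:FEZ-GFP. BRN2 overlapped too, since among these libraries only FEZ:FEZ-GFP replicate 1 had it above 0 (0.478 FPKM). The part of these markers in the difference was not tested. In TMO5:3xGFP the root cap sums were 5.48 to 11.2 FPKM, with BRN1 at 5.69, 5.05 and 1.90, and the sums of the 10 genes were 2.21 to 10.2. The root cap sums of these populations thus differed in make-up, and how they relate to the 10 genes was not tested. In a pool of sorted cells, fewer dividing cells and less RNA of these genes per cell cannot be told apart.

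KNOLLE, HINKEL and MAD2 went up and down with each other over the 12 libraries. As a description over libraries that share populations and normalization, Pearson's r of log2(FPKM + 1) was 0.85 for KNOLLE and HINKEL, 0.82 for KNOLLE and MAD2 and 0.90 for HINKEL and MAD2. AUR2 had r of 0.53 with KNOLLE, 0.25 with HINKEL and 0.27 with MAD2. The genes most like each were then taken from all tested genes. For KNOLLE these were the B-type cyclin CYCB1;2 (AT5G06150, r = 0.91), AT3G52110 (r = 0.90) and the spindle assembly factor TPX2 (AT1G03780, r = 0.87). TPX2 was also nearest to HINKEL (r = 0.97), ahead of AT5G48310 (r = 0.96) and AT2G22610 (r = 0.91). For MAD2 they were AT5G48310 (r = 0.93), TPX2 (r = 0.92) and the checkpoint kinase-like gene BUBR1 (AT2G33560, r = 0.91). TPX2 had 1.52, 1.31 and 0.155 FPKM in FEZ:FEZ-GFP and 1.17, 0 and 0.230 in WOX5:GFP, so that FEZ:FEZ-GFP replicates 1 and 2 and WOX5:GFP replicate 1 were high, as for HINKEL. For AUR2 the nearest were RRP41 (AT3G61620, r = 0.93), AT5G47440 (r = 0.92) and the F-box gene KMD1 (AT1G80440, r = 0.92).

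Other genes of the same processes were read from lists of 49 mitosis and cytokinesis genes and 12 mitotic cyclin and CDKB genes, which were drawn up with earlier results of these data known. For FEZ:FEZ-GFP against the other 9 libraries, all 12 cyclin and CDKB genes had a positive difference, from 0.0025 for CDKB1;2 to 1.44 for CYCB1;2 on log2(FPKM + 1), beside 41.6% positive among all genes. Their median was 0.67, beside -0.03 over all genes, and 7 of the 12 had an unadjusted exact p under 0.05, against 3.60% of all genes. CYCB1;2 had levels of 2.57, 4.83 and 1.24 FPKM in FEZ:FEZ-GFP, 2.52, 0.211 and 0.198 in WOX5:GFP, 0.196, 0.590 and 0 in TMO5:3xGFP and 0.266, 0 and 0 in CYCD6:GFP. Its highest values came from FEZ:FEZ-GFP replicates 1 and 2 and WOX5:GFP replicate 1. In CYCD6:GFP all 12 had a negative difference, from -1.01 for CYCB2;3 to -0.14 for CYCB1;3, with a median of -0.39. None of the 12 was called in limma, where 4 of them passed the filter.

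Of the 49 mitosis and cytokinesis genes, 35 had a positive and 14 a negative difference in FEZ:FEZ-GFP, with a median of 0.16, and 9 had an unadjusted exact p under 0.05, against 41.6% positive and 3.60% under 0.05 among all genes. The highest was MAP65-2 at 1.64 and the lowest KEULE, the Sec1 protein that works with KNOLLE, at -0.57. KEULE, which cells also use outside division, had 1.30, 2.27 and 1.31 FPKM in FEZ:FEZ-GFP and 1.26 to 5.72 in the other libraries. In CYCD6:GFP 9 were positive and 40 negative, from -1.33 for MAP65-2 to 0.55 for MPK4, with a median of -0.26. In TMO5:3xGFP 31 were positive and 18 negative with a median of 0.19, above that in FEZ:FEZ-GFP, and 8 had an unadjusted exact p under 0.05. Among all genes the median there was 0.08, with 63.2% positive and 14.5% under 0.05. The list ran from -0.89 for CCS52A1 to 1.10 for MAP65-2. In WOX5:GFP it ran from -1.41 for MAP65-2 to 0.92 for CCS52A1, an APC/C activator of cells that leave division.

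MAP65-2 (AT4G26760), a microtubule bundling relative of PLEIADE, was the 1 gene of 24 in the list and above the filter that differed between populations (limma F-test, adjusted p = 0.00745). A count of 1 in 24 is near the 4.28% of all tested genes, and with no filter the call was lost. Its level was 29.8, 9.42 and 9.63 FPKM in FEZ:FEZ-GFP and 10.8, 12.1 and 8.49 in TMO5:3xGFP, against 3.77, 1.47 and 1.83 in CYCD6:GFP and 2.88, 1.37 and 2.22 in WOX5:GFP. The first 2 populations lay wholly above the other 2. It was higher in FEZ:FEZ-GFP than in CYCD6:GFP by 2.23 on log2(FPKM + 1) (SE 0.49, limma adjusted p = 0.0427) and than in WOX5:GFP by 2.28 (SE 0.49, limma adjusted p = 0.0246). It was likewise higher in TMO5:3xGFP than in CYCD6:GFP by 1.82 (SE 0.49, limma adjusted p = 0.0386) and than in WOX5:GFP by 1.88 (SE 0.49, limma adjusted p = 0.0291). PLEIADE itself was under 0.5 FPKM in the same libraries, with a coding identity to MAP65-2 of 49.9%.

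**Figure D3:**
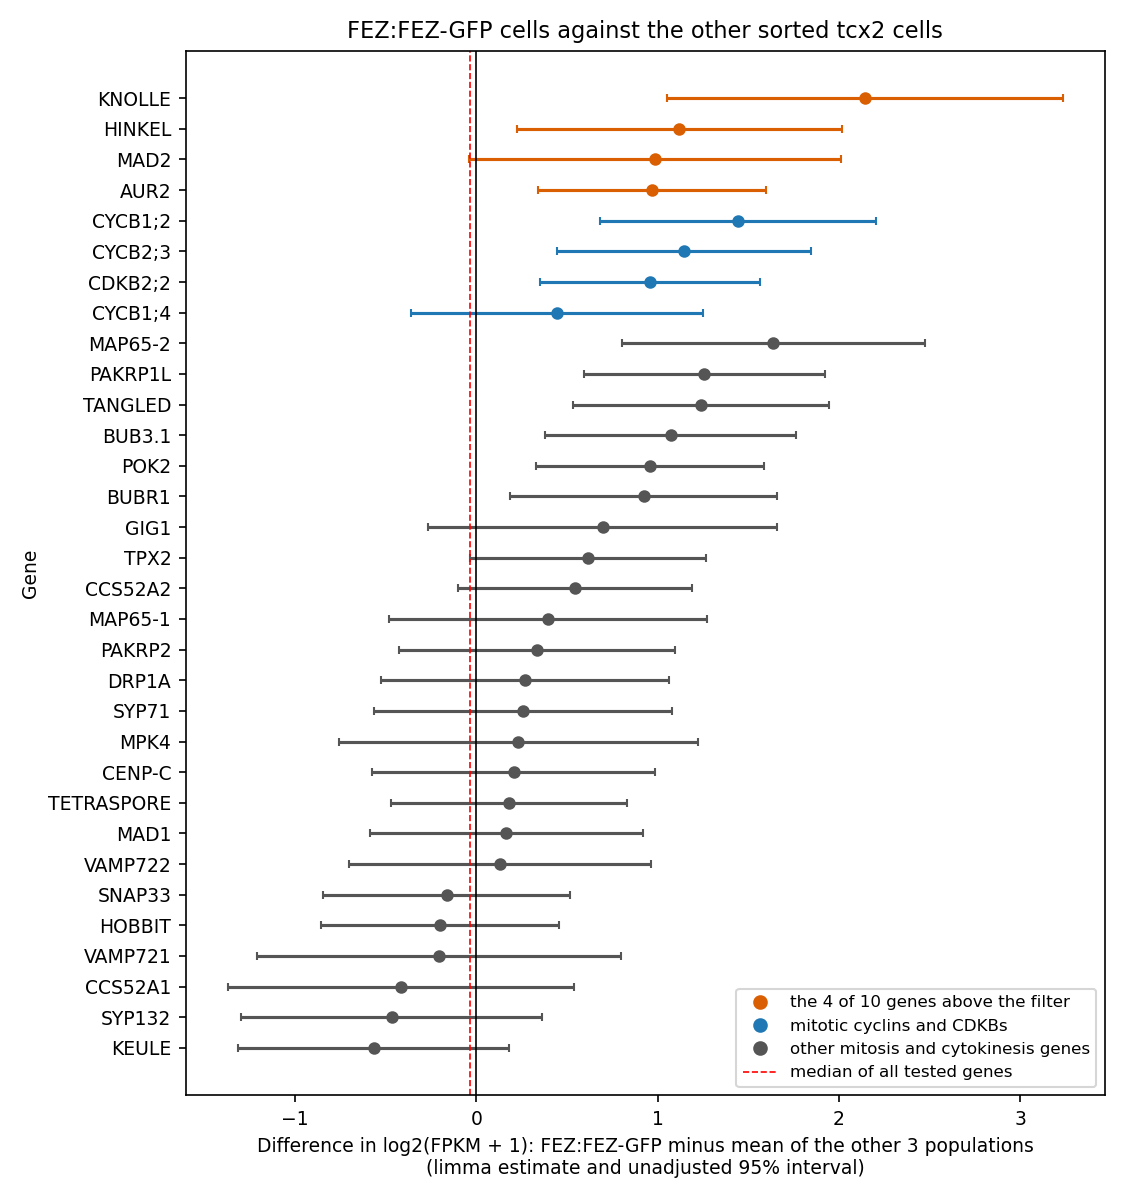
Difference in log2(FPKM + 1) between FEZ:FEZ-GFP and the mean of the other 3 sorted populations (horizontal axis, limma estimate with unadjusted 95% interval) for the 4 genes above the filter, 4 mitotic cyclin and CDKB genes and 24 other mitosis and cytokinesis genes. KNOLLE has the highest estimate at 2.14 and KEULE the lowest at -0.57, beside a median of -0.03 over all tested genes (dashed line), and none of these differences passed the adjusted threshold.

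Whole root tips bore on the other question of the design, whether loss of TCX2 changed these genes, but could not decide it. There all 10 reached 1 FPKM in WT, and the intervals of tcx2 and WT overlapped for each. The table holds 1 FPKM value and 1 interval per genotype, so replicates could not be used and no test was made. A gene was called where the intervals did not overlap. The intervals were wide, so an overlap does not show that a gene was unchanged. That was so for 0 of the 10 genes, against 0.361% of 17465 entries of at least 1 FPKM. Past 1.5-fold on log2(FPKM + 1) there were again 0 of 10, against 2.62% of these entries.

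KNOLLE was the highest in root tips too, with 19.8 FPKM for WT (interval 14.5 to 25.0) against 19.6 for tcx2 (14.1 to 25.0). HINKEL was at 5.26 FPKM in both genotypes (3.92 to 6.61 and 3.92 to 6.64). PLEIADE had 4.31 FPKM for WT (3.05 to 5.54) against 3.65 for tcx2 (2.58 to 4.74). For KNOLLE and HINKEL the intervals were nearly the same, and for PLEIADE they overlapped from 3.05 to 4.74.

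EDE1 and AUR3 had the largest ratios, both at low levels. EDE1 had 1.64 FPKM for WT (0.892 to 2.33) against 1.07 for tcx2 (0.549 to 1.58), a ratio of 0.657. AUR3 had 1.78 FPKM for WT (0.783 to 2.74) against 3.05 for tcx2 (1.57 to 4.44), a ratio of 1.71 and a difference of 0.54 on log2(FPKM + 1). AUR3 passed 1.5-fold with a pseudocount of 0.1, at 0.75, and after quantile normalization of the genotypes, at 0.61, with its intervals overlapping all the same. The other Aurora kinases stood at 9.37 FPKM in WT and 9.85 in tcx2 for AUR2 (6.45 to 12.3 and 6.94 to 12.8) and at 8.37 and 7.80 for AUR1 (4.81 to 10.6 and 4.60 to 10).

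CDC20.1 was at 12.6 FPKM in WT and 12 in tcx2 (8.87 to 16.3 and 8.39 to 15.4). CDC20.2 was at 9.97 and 9.58 FPKM (7.31 to 12.6 and 7.08 to 12.1). MAD2, whose span covers neighbouring genes, was at 8.83 and 7.22 FPKM with wide intervals (4.35 to 13.3 and 3.13 to 11.3). In WT the order was KNOLLE, CDC20.1, CDC20.2, AUR2, MAD2, AUR1, HINKEL, PLEIADE, AUR3, EDE1. Of the neighbours in it, PLEIADE and AUR3 alone had separate intervals in WT, and in tcx2 none had.

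**Figure D4:**
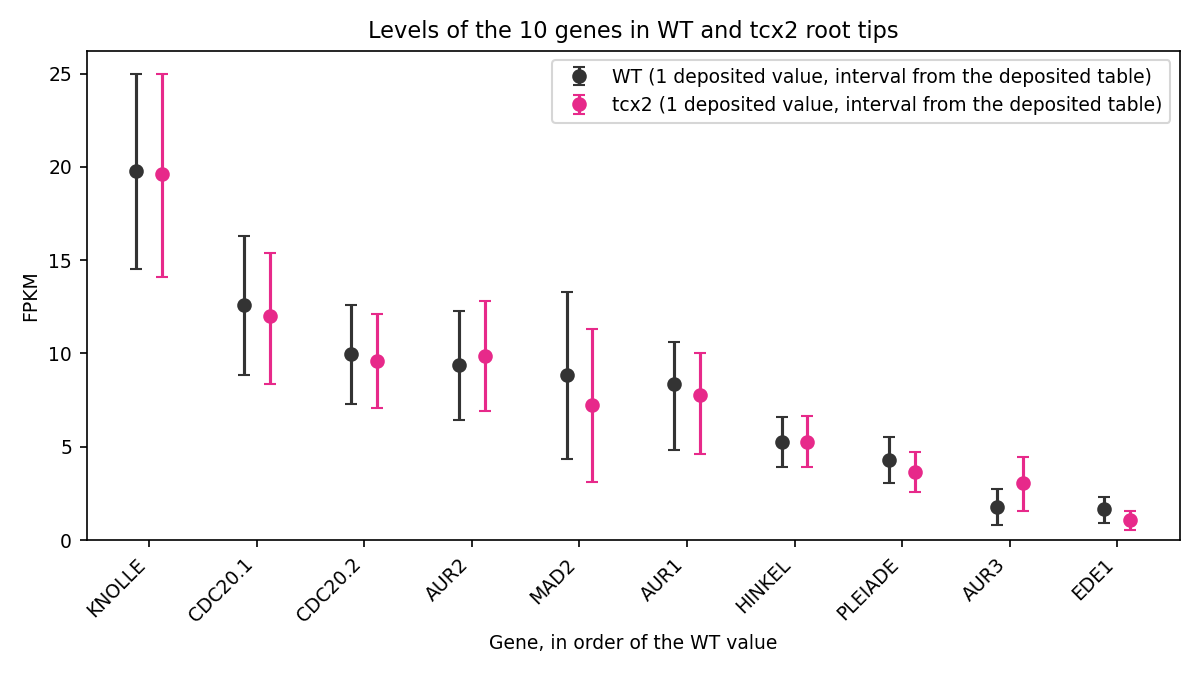
FPKM (vertical axis) of the 10 genes in WT and tcx2 root tips, in order of the WT value, as deposited with 1 value per genotype and its interval as the bar. The intervals of the genotypes overlap for every gene, with AUR3 (1.78 and 3.05) and EDE1 (1.64 and 1.07) farthest apart in ratio.

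Over the 10 genes, 7 values were lower in tcx2, 2 were higher (AUR2 and AUR3) and HINKEL was the same to 3 digits. The median difference was -0.06 on log2(FPKM + 1), beside 0.0017 over all entries of at least 1 FPKM, of which 49.6% were lower in tcx2. Among the 12 cyclin and CDKB genes 11 were lower and 1 higher, with a median of -0.06, from -0.34 for CDKB2;1 (10.8 FPKM in WT and 8.34 in tcx2) to 0.02 for CYCB1;1 (4.35 and 4.42). Of the 49 mitosis and cytokinesis genes 46 reached 1 FPKM, 23 higher and 23 lower, from -0.37 for GIG1, an APC/C inhibitor, to 0.50 for its relative UVI4 (1.59 FPKM in WT and 2.65 in tcx2). None of these genes had separate intervals or passed 1.5-fold. MAP65-2, the gene that differed among sorted populations, was at 21.9 FPKM in WT (17.0 to 26.8) and 19.5 in tcx2 (15.1 to 23.9). The root tip and sorted tables were normalized separately and made with different library kits, so levels were not compared between them.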

How the data were processed

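RNA was sequenced as 100-base single-end reads. The authors deposited FPKM values from Cufflinks for 12 sorted libraries, and for root tips 1 FPKM value per genotype with an interval of unstated level, the 3 replicates of each pooled. The submitters' processing notes name TAIR10 with Bowtie for root tips and Bowtie2 and edgeR for sorted cells. The 10 genes and the lists were chosen with earlier results of these data known.

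Sorted libraries were compared with limma 3.58.1 in R 4.3.3 (trended variance, two-sided) on log2(FPKM + 1), for the 9979 genes of at least 1 FPKM in at least 3 of 12 libraries, with Benjamini-Hochberg adjustment over all of them. Fold changes on this scale understate those of low genes. Low genes had an exact permutation test over libraries. Root tips, with no replicate values, were compared by interval overlap and given no test. Starts in the root tip table count from 0 and were raised by 1. Named were the 10 genes, list genes called or at the ends of a list, and the 3 most similar genes for each of the 10 that passed the filter. Promoters came from TAIR10.1 and RefSeq annotation, and protein sequences were not used here. Alternatives were 2 pseudocounts (0.1 and 5), no filter, median centring, rescaling to nuclear genes, array weights, a replicate block and leaving out each library.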

Additional observations from a re-analysis of the deposited data

How the results depend on the processing

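Where they passed the filter, the 4 genes in the fit kept their direction in FEZ:FEZ-GFP and in CYCD6:GFP against the other populations under other settings. This held in all 140 such repeats, and the call changed in 6. AUR2 gave no repeat without FEZ:FEZ-GFP replicate 2 or 3 or TMO5:3xGFP replicate 2, as it failed the filter there. MAD2 failed it, and gave none, without FEZ:FEZ-GFP replicate 1 or 2 or WOX5:GFP replicate 1. With array weights, which ran from 0.288 for CYCD6:GFP replicate 3 to 5.65 for CYCD6:GFP replicate 2, all 4 genes were called in the F-test over populations, 5 differences were called against the other 3 populations and 7 between pairs, while the count over all genes rose from 427 to 3985. The same setting called 14 mitosis and cytokinesis genes and 3 cyclin and CDKB genes in the F-test. Without a filter 0 mitosis and cytokinesis genes were called, MAP65-2 included. The 6 libraries of CYCD6:GFP and FEZ:FEZ-GFP alone, a choice made after seeing the data, gave 1 called pair difference, that of KNOLLE. KNOLLE was the only gene of the set to pass the filter in that fit. Leaving out 1 library at a time gave 0 to 1 called genes in the F-test, 0 to 1 differences against the other populations and 0 to 1 between pairs, in each case KNOLLE, and 0 to 2 cyclin and CDKB genes. KNOLLE was called against the other populations without TMO5:3xGFP replicate 2 (limma adjusted p = 0.0477). Without FEZ:FEZ-GFP replicate 1 its difference there was 1.78 with an adjusted p of 0.557. The cause of these changes was not tested.

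With the replicate number as a block, 1 of the 4 genes was called in the F-test, 0 against the other populations and 1 between pairs, in both cases KNOLLE (limma adjusted p = 0.0297 and 0.0307). The numbers did not pair the libraries: correlations of same-numbered libraries' deviations from their group means ran from -0.187 to 0.174. In root tips 0 of the 10 genes had separate intervals after quantile normalization, and pseudocounts cannot change that count. There 1 gene (AUR3) passed 1.5-fold with a pseudocount of 0.1 or after quantile normalization. Values near 1 FPKM and unknown depth limit what these libraries can show.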
